A study of Mus musculus with 6 samples.

Results

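The genes described here encode the replicative MCM helicase and the factors that load and start it. They are Mcm2, Mcm3, Mcm4, Mcm5, Mcm6 and Mcm7, the subunits of the helicase ring (together MCM2-7), the loading factors Cdc6 and Cdt1, and the activation factors Mcm10 and Cdc45. They were taken from a list of symbols by the array platform's annotation, and all 10 were measured, out of 18193 named genes. A gene is represented by whichever of its probe sets was brightest on average across the 6 arrays, and the 28 probe sets that carry only a member's symbol are shown beside it.

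Marrow came from the femurs of male and female mice, 3 to 6 months old, all hemizygous for the transgene Tg(Ren1-GFP)2Kwg, in which the renin gene's control drives green fluorescent protein (GFP). Marrow of 4 to 5 mice was pooled for each of 3 sorts. An unsorted share of each pool gave the presort samples (n = 3), and GFP-positive cells sorted out of the remainder gave the sorted samples (n = 3), so each sorted sample has a presort partner from the same animals. The gates removed erythrocytes and debris by scatter and kept single cells, and the lower GFP limit let in 0.1% of cells from mice without the transgene. Every animal carried the transgene, the fluorescence marks cells in which it is on rather than renin itself, and the renin gene is not reported here. RNA was read on 1 Affymetrix 3' array per sample, and all values are log2 intensities, whose range on each array was 3.28 to 15.23 with a median of 6.04. These relative levels carry no information on RNA per cell, so fewer dividing cells and less of these RNAs in each cell cannot be told apart.

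Licensing is the step by which a cell prepares its replication origins before it copies its DNA. The origin recognition complex marks the origin, CDC6 and CDT1 bring the MCM2-7 ring onto it, and the loaded ring stays inactive until CDC45 and the GINS complex join it with help from MCM10. Geminin, which binds CDT1, and several ubiquitin ligases keep an origin from being licensed again in the same cycle. These genes are expressed in cycling cells and fall when cells leave the cycle, and in marrow the dividing cells include erythroid and granulocyte precursors and B cell progenitors.

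All 10 members were lower in the sorted samples, by a median of -1.79 on the log2 scale, and 9 of them by at least 2-fold. Mcm7 passed this limit narrowly, at -1.03, with differences of -1.17, -0.95 and -0.97 in pools 1, 2 and 3. The test was limma without the pairing by pool, with Benjamini-Hochberg adjustment over all 18193 genes. Of these, 18.1% were called lower at an adjusted p under 0.05, and 10.3% were called lower and fell by at least 2-fold. The median over all genes was -0.0021. For every member the highest sorted array lay below the lowest presort array, a separation in this direction that 23.6% of all genes showed. The members' adjusted p ranged from 2.19e-05 for Mcm10 to 0.00587 for Cdt1.

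**Figure D1:**
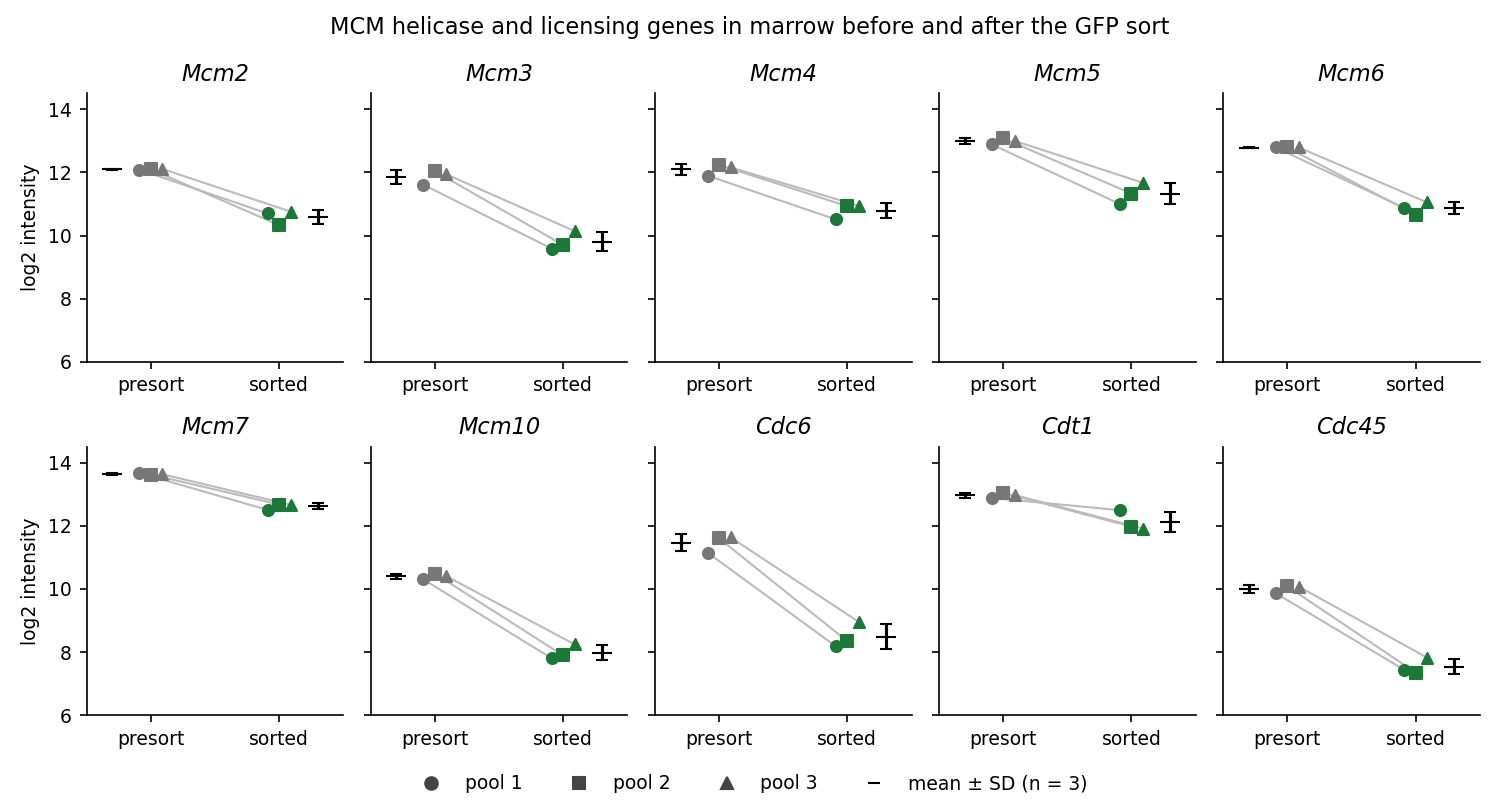
Log2 intensity (vertical axis) of each of the 10 genes in presort (grey) and sorted (green) marrow, with circles, squares and triangles for pools 1, 2 and 3, lines joining samples of the same pool, and bars for the mean ± SD of 3 samples. Every line falls; the steepest is that of Cdc6 in pool 2 (-3.26 on the log2 scale) and the flattest that of Cdt1 in pool 1 (-0.38).

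Among the ring subunits, Mcm3 and Mcm6 had the largest falls. Mcm3 stood at 11.61, 12.04 and 11.94 in presort replicates 1, 2 and 3 and at 9.59, 9.70 and 10.14 in the sorted samples of the same pools. The difference was -2.05 ± 0.18 on the log2 scale (SE; 4.15-fold lower, limma adjusted p = 9.13e-05), and the lowest presort and the highest sorted array are 1.47 apart. Mcm6 was at 12.79 in each of the 3 presort samples and at 10.88, 10.66 and 11.05 in the sorted ones. The presort values differed by an SD of only 0.0021, while the sorted values spread over an SD of 0.20. Mcm6 fell by 1.93 ± 0.13 (SE; 3.80-fold, adjusted p = 2.75e-05).

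Mcm2, Mcm4 and Mcm5 fell by less at the probe sets that stand for them. Mcm5 was at 12.89, 13.08 and 13.00 in presort and at 11.00, 11.33 and 11.67 in sorted samples, a difference of -1.66 ± 0.17 (SE; adjusted p = 0.000213). Its sorted values differed from each other more than its presort values, with an SD of 0.34 against 0.091. Mcm2, which with Mcm5 flanks the gap where the ring opens, was at 12.09, 12.10 and 12.11 in presort and at 10.70, 10.33 and 10.76 in sorted samples. Its difference was -1.50 ± 0.14 (SE; 2.83-fold, adjusted p = 0.000103). Mcm4 belongs to the catalytic core with Mcm6 and Mcm7. It was at 11.90, 12.24 and 12.16 in presort and at 10.51, 10.93 and 10.94 in sorted samples, and fell by 1.31 ± 0.16 (SE; 2.47-fold, adjusted p = 0.000457).

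Mcm7 had the smallest fall of the ring subunits. It stood at 13.67, 13.62 and 13.63 in presort and at 12.50, 12.67 and 12.66 in sorted samples. Presort and sorted values were both tight, with an SD of 0.027 and 0.096, and the difference was -1.03 ± 0.10 (SE; 2.04-fold, adjusted p = 0.000182). This probe set lies in the upper part of the intensity scale, and the other 3 Mcm7 probe sets, described further on, fell by more.

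The 2 loading factors bracketed all other members. Cdc6, the ATPase that joins the origin recognition complex before the ring is loaded, had the largest fall of the 10. It was at 11.15, 11.60 and 11.63 in presort and at 8.18, 8.34 and 8.95 in sorted samples, a difference of -2.97 ± 0.22 (SE; 7.83-fold lower, adjusted p = 4.36e-05). The 2 groups are 2.20 apart at their nearest values. Cdt1, the partner that escorts the ring to the origin, had the smallest fall. It stood at 12.88, 13.04 and 12.97 in presort and at 12.49, 11.97 and 11.91 in sorted samples, a difference of -0.84 ± 0.17 (SE; 1.79-fold lower, adjusted p = 0.00587). Sorted replicate 1 was the high one, and the differences within pools 1, 2 and 3 were -0.38, -1.07 and -1.07. Without pool 2 the difference of Cdt1 was -0.73 with an adjusted p of 0.0737, and without pool 3 it was -0.73 with 0.0778, so the call was lost in both cases. Without sorted replicate 1 it was -1.02.

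Both activation factors fell, with larger differences than those of the ring subunits at the probe sets used. Mcm10 was at 10.30, 10.48 and 10.40 in presort and at 7.80, 7.89 and 8.24 in sorted samples, and fell by 2.41 ± 0.14 (SE; 5.33-fold, adjusted p = 2.19e-05). Cdc45, which becomes part of the active helicase, was at 9.86, 10.08 and 10.07 in presort and at 7.44, 7.35 and 7.82 in sorted samples. Its difference of -2.46 ± 0.15 (SE; 5.52-fold lower, adjusted p = 2.33e-05) and that of Mcm10 differed by less than their standard errors. In both genes pool 3 had the smallest difference, -2.16 for Mcm10 and -2.25 for Cdc45. The median over the 10 members was -1.90 in pool 1, -1.95 in pool 2 and -1.55 in pool 3.

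Whether the members differed by unequal amounts was compared on each array, as a member's log2 value minus the mean of the other MCM2-7 subunits, which does not move with the scaling of an array. Relative to the ring, Cdc6 differed by -1.39 on the log2 scale (sorted minus presort), and its values were -1.34, -1.04 and -0.98 in presort against -2.68, -2.60 and -2.25 in sorted samples. Cdc45 differed by -0.88 and Mcm10 by -0.83 relative to the ring. Cdt1 went the other way, with 0.39, 0.40 and 0.37 in presort and 1.63, 1.04 and 0.70 in sorted samples, a relative difference of 0.74. It was 0.25 with the beta-actin control's 3' excess, given further on, as a term in the fit, and 1.21 without probe sets named _x_at or _s_at. Within the ring, Mcm7 differed by 0.66 and Mcm4 by 0.33 against the other subunits, and Mcm3 by -0.57 and Mcm6 by -0.42. In these 8 genes the groups did not overlap. How many of all genes would separate likewise when set against the ring was not counted, so this separation cannot be called particular to the members. A two-sided exact permutation test gave p = 0.1 for each of the 8, the smallest that 3 against 3 samples allow (0.125 after adjustment over the 10 members). Mcm2 (0.092, exact p = 0.8) and Mcm5 (-0.095, exact p = 0.7) overlapped, and with the beta-actin term their signs turned (-0.19 and 0.13). No member therefore passed a threshold of 0.05, which this design cannot reach.

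**Figure D2:**
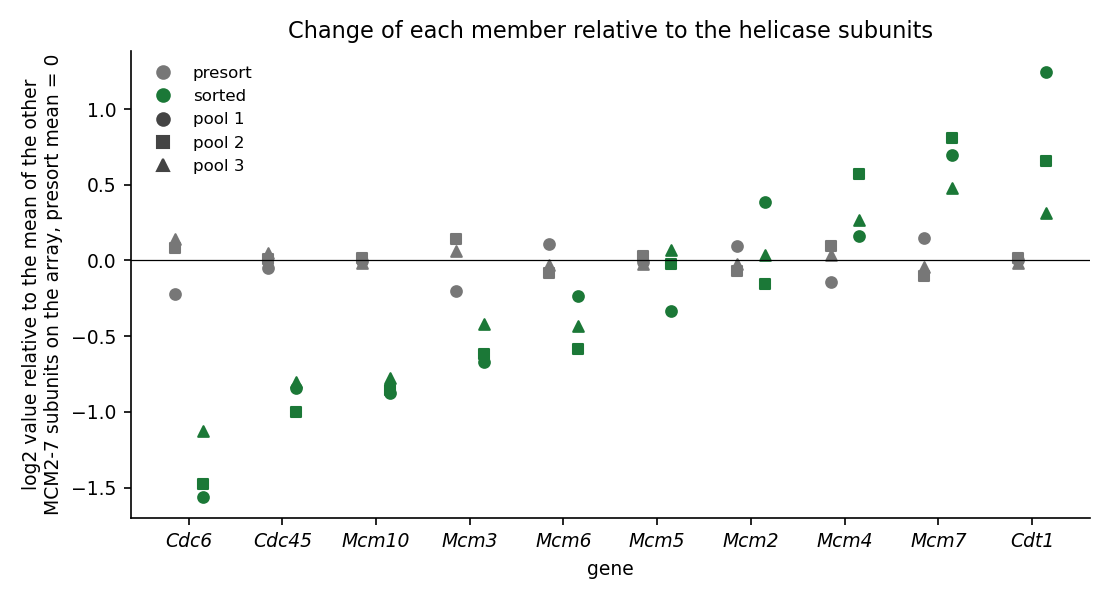
Log2 value of each gene minus the mean of the other MCM2-7 subunits on the same array (vertical axis), shifted so that the presort mean is 0, for presort (grey) and sorted (green) samples of pools 1 to 3 (circle, square, triangle). Sorted samples lie lowest for Cdc6 (mean shift -1.39) and highest for Cdt1 (0.74, with pool 1 at the top).

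The order of the ring subunits depended on the probe set. Of the 28 probe sets, 23 were called lower and none was called higher, where 15.3% of 34945 probe sets were called lower. All 21 with a mean of at least 8 fell, with differences from -2.97 to -0.84. The 5 that were not called, chosen here after their values were seen, had means of 4.06 to 5.64, below the array median of 6.04. They were 2 of Mcm10 at -0.05 and -0.23, and 1 each of Mcm3 at -0.19, Mcm6 at -0.46 and Cdt1 at 0.04. Mcm7 fell by 1.03 at the probe set that stands for it and by 2.00, 1.74 and 1.33 at the other 3, whose presort means were 12.21, 12.03 and 11.61 against 13.64. Mcm5 fell by 1.66 at its brightest, by 2.49 at its second and by 1.22 at its dimmest probe set. The second probe set of Mcm2 gave -2.03 and that of Mcm4 gave -1.65.

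Mcm3 and Mcm6 were steadier: 4 probe sets of Mcm3 lay between -1.87 and -2.22, and 2 of Mcm6 at -1.93 and -1.84. Cdt1 fell by 1.21 at its second probe set, where sorted replicate 1 was again the highest of the sorted samples, at 10.28 against 9.45 and 9.84. Cdc45 fell by 0.51 at a dim second probe set, with a mean of 7.29. Of the 7 members with a second probe set of a mean of at least 8, the second fell by more than the first in 5. Without probe sets named _x_at or _s_at, which can match several transcripts, Mcm7 fell by 2.00 and its difference relative to the ring was 0.066, and that of Mcm6 was 0.15. With the mean of all probe sets, in which the dim ones count, Mcm10 fell by 0.90 and Cdc45 by 1.49. Relative to the ring the sign of Mcm10 (0.71), Cdc45 (0.12), Mcm6 (0.24) and Mcm2 (-0.19) was then turned. Mcm3 was at -0.08 and Mcm7 at 0.099. Cdc6, which has 1 probe set, stayed at -0.92 relative to the ring without such probe sets and at -1.36 with the means.

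**Figure D3:**
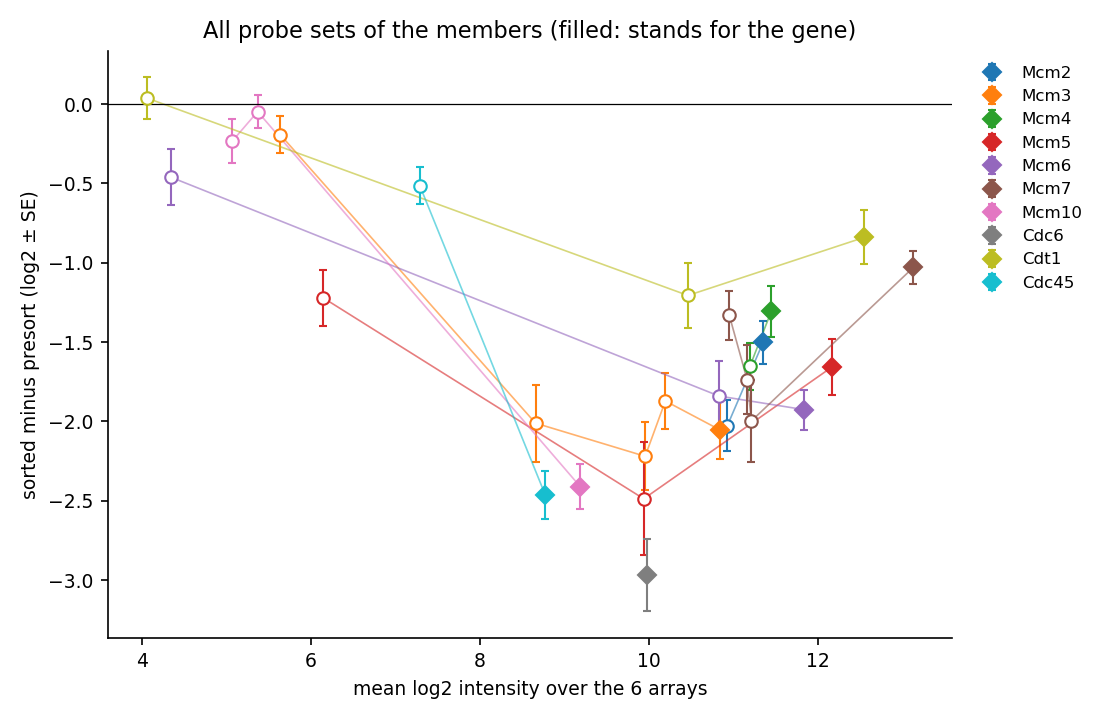
Sorted minus presort difference (log2, bars are ± SE from limma) of all 28 probe sets of the 10 genes against their mean log2 intensity over the 6 arrays. Filled diamonds stand for the gene and lines join probe sets of 1 gene; the 5 probe sets that were not called all have a mean of 5.64 or less, and the brightest, of Mcm7, fell by 1.03.

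The start regions of 6 members hold a sequence feature that the choice of genes did not use. E2F transcription factors, which drive many genes of the G1 to S transition, bind sites whose 8 letters are TTTCCCGC, TTTCGCGC, TTTGCCGC or TTTGGCGC, and these 4 words were searched on both strands in RefSeq windows (GRCm38.p6) of 250 bases before and 50 after the transcription start. Of the 9 members with a window in the table (Mcm4 was not matched), 6 held at least 1 match: Mcm3, Mcm5, Mcm6, Mcm7, Cdc6 and Cdt1. Of all 32851 windows, 2.26% did, and 2.14% of the 25517 windows whose GC content lay between the members' lowest and highest, 38.7% and 66.7%. Matches were also found in 5 of 10 genes with a window among the E2F and pocket protein genes and in 5 of 10 replicative polymerase genes, among them Pold1 and Pole4, which were called higher, and in 1 of 14 mitosis genes. Among other replication lists, matches were found in 0 of 7 nucleotide supply genes and 2 of 13 clamp and lagging strand genes. The origin recognition complex had them in 2 of 6 genes, licensing control in 2 of 9 and origin firing in 2 of 6. MCM paralogs had them in 1 of 2 genes and fork protection in 1 of 7. They were found in 2 of 3 S phase cyclin and kinase genes. No test of these shares was made. The stretches around the matches are shown for their number and arrangement, on the gene's strand, 5′ to 3′, with the matching letters in capitals:

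Mcm6: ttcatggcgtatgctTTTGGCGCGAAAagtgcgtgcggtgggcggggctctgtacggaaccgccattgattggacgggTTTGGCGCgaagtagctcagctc

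Mcm5: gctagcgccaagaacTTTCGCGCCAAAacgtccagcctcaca

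Mcm3: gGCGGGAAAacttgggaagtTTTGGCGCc

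Mcm7, upstream: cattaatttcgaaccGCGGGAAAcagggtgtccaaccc

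Mcm7, downstream: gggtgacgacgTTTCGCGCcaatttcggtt

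Cdc6: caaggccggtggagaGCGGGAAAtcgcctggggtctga

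Cdt1: ggaactaccttTTTGGCGCcatggcgcaa

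Mcm6 (chr1:128359730-128359830, minus strand) held 3 matches, of which 2 on opposite strands overlap in the capitals TTTGGCGCGAAA, at positions -110 to -99 from the start. Mcm5 (chr8:75109341-75109382, plus strand) held a like overlapping arrangement, TTTCGCGCCAAA, at positions -153 to -142. In Mcm3 (chr1:20820266-20820294, minus strand) both matches lay after the start, from base 20 to base 46. In Mcm7, 1 match lay at -165 to -158 (chr5:138172026-138172063, minus strand) and 1 at bases 17 to 24 after it (chr5:138171849-138171878). Cdc6 (chr11:98907998-98908035, plus strand) held 1 match at -138 to -131, and Cdt1 (chr8:122568036-122568064, plus strand) held 1 at bases 33 to 40 after it. Mcm2, Mcm10 and Cdc45 had no match to these letters in their windows. Another short word of cell cycle promoters, TTTGAA, was found on either strand in 2 of the 9, Mcm2 and Cdc45, and in 17.9% of all windows, and CCAAT in 7 of the 9 and in 37.4% of all windows. A match describes the letters only.

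**Figure D4:**
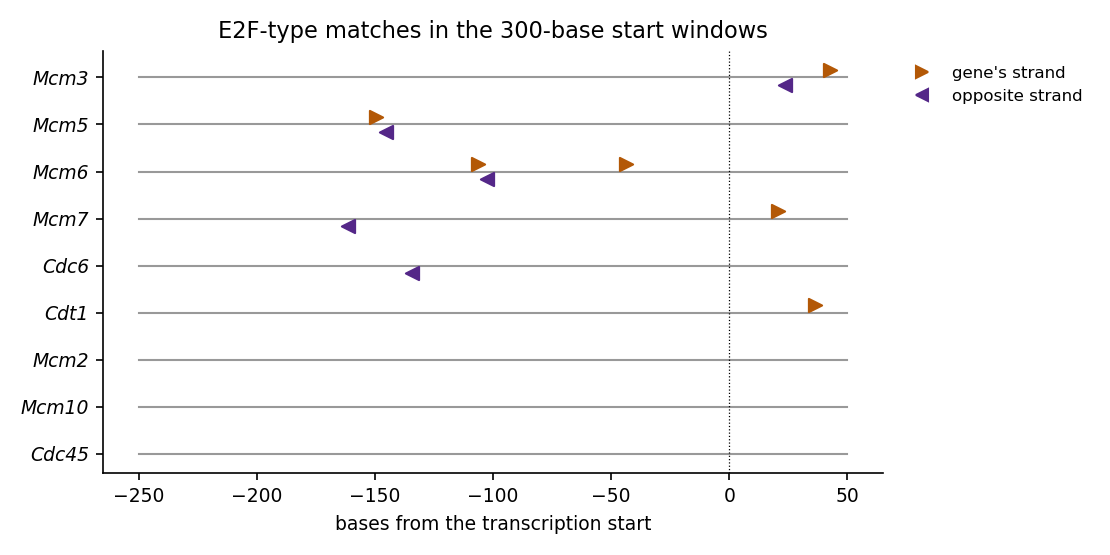
Position of each E2F-type match (bases from the transcription start, horizontal axis) in the 300-base windows of the 9 genes found in the table, right-pointing where the word is on the gene's strand and left-pointing where it is on the opposite strand. Mcm6 holds 3 matches and Mcm3, Mcm5 and Mcm7 hold 2 each; Mcm2, Mcm10 and Cdc45 hold none.

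The origin recognition complex is the platform on which the members assemble. Of its 6 genes, all were measured, 4 fell and 1 rose, with a list median of -0.50. Orc6 had the largest fall, from 9.74, 10.09 and 9.99 to 8.48, 8.52 and 8.22 (-1.53 ± 0.14, SE; adjusted p = 0.000106). Orc1, whose level is known to vary through the cycle, fell by 0.70, and by 2.39 at its dimmer probe set. Orc4 was higher in sorted samples, at 10.27, 9.89 and 10.05 against 9.25, 9.52 and 9.26 in presort, a rise of 0.73 ± 0.14 (SE; adjusted p = 0.00468). Its next 2 probe sets rose by 1.12 and 0.97. The call of Orc4 was lost without pool 3 (0.70, adjusted p = 0.0686) and when the beta-actin control's 3' excess, given further on, entered the fit (0.55, 0.0504). Orc2 fell by 0.51 and Orc5 by 0.49, and Orc3 did not pass at -0.19 (0.04 with median centring). Orc1 missed without pool 3 and with the beta-actin term (adjusted p of 0.0552 and 0.0603), Orc2 under 9 alternatives (0.0622 to 0.188) and Orc5 under 6 (0.052 to 0.174), median centring among them for both. The count of falls in this complex went from 4 to 2 without presort replicate 2, presort replicate 3 or pool 2, with median centring of the arrays or with the beta-actin term, and to 1 without pool 3.

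Of the 10 genes that control licensing, 7 fell and 3 did not pass, with a median of -1.27. Dtl, the adaptor of the ligase that degrades CDT1 in S phase, fell by 2.28 ± 0.17 (SE; adjusted p = 4.54e-05), from 11.07, 11.16 and 11.07 to 8.65, 8.59 and 9.21. Gmnn, which encodes geminin, was at 12.23, 12.34 and 12.46 in presort and at 10.27, 10.74 and 10.55 in sorted samples, and fell by 1.82 ± 0.14 (SE). Skp2, another adaptor for CDT1 degradation, fell by 2.00 and Fbxo5, an inhibitor of the anaphase-promoting complex, by 1.83. Fzr1, an activator of that complex, fell by 1.44. Of the scaffold of the DTL ligase, Cul4a fell by 1.09 and Ddb1 by 0.44, while Cul4b did not pass at 0.42 and was called higher without sorted replicate 2 (0.59, adjusted p = 0.0178) and with median centring (0.65, 0.0244). Ddb1 missed the threshold when any presort sample, sorted replicate 2 or any pool was left out, under median centring and with the beta-actin term (adjusted p of 0.0711 to 0.205). Mcmbp, a binding protein of the MCM ring, did not pass at -0.03, with either sign among the alternatives, nor did Kat7, a histone acetyltransferase that acts at origins, at -0.24 (0.15 with the mean of probe sets).

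Of the 11 genes of origin firing, 10 fell, with a median of -1.10. The GINS subunits fell by 2.16 for Gins1, 2.18 for Gins2, 0.98 for Gins3 and 0.87 for Gins4. Gins2 was at 9.16, 9.58 and 9.24 in presort and at 6.72, 7.38 and 7.35 in sorted samples (SE 0.20, adjusted p = 0.000121). Cdc7, the kinase that phosphorylates the loaded ring, fell by 1.43, and its activator Dbf4 by 1.10. Ticrr, which brings CDC45 to the origin, fell by 1.83 and its partner Topbp1 by 0.72. Recql4, a helicase needed for initiation, fell by 1.65 and Donson by 0.70, whereas Mtbp did not pass at -0.34 and was called lower without sorted replicate 1 (-0.51) or pool 1 (-0.59). Averaged over probe sets, Topbp1 (-0.37, adjusted p = 0.0603) and Donson (-0.13, 0.673) were not called. Topbp1 also missed without pool 3 (0.0513) and Donson without pool 2 (0.0579). Of the MCM paralogs that act outside origin firing, Mcm8 fell by 1.24 ± 0.16 (SE; adjusted p = 0.000626). Mcm9 did not pass at 0.49, with sorted values of 9.19, 7.69 and 8.54, and it was called higher without sorted replicate 2 (0.88, adjusted p = 0.0324) but stood at 0.14 without sorted replicate 1 and at -0.19 with the beta-actin term.

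Genes that act after the helicase mostly fell as well. Over 10 lists of other replication genes, which include those just named, 88 of 91 genes were measured, 69 fell, 5 rose and 14 did not pass, with a median of -1.21. For comparison, 2629 of all 18193 genes were called higher and 3296 lower. The counts in the lists were not tested against these. Of the replicative polymerases 9 fell and 3 rose of 12 (median -1.25). Pole, the leading strand polymerase, fell by 2.34 ± 0.16 (SE; adjusted p = 3.07e-05). Those that rose were Pold4 at 1.10 and Pole4 at 0.65, small accessory subunits, and Pold1 at 0.86, a catalytic subunit. Pold1 did not pass without _x_at and _s_at probe sets (0.30, adjusted p = 0.452), Pole4 turned to -0.0058 when averaged over its probe sets, and both Pold4 and Pole4 missed without pool 2 or pool 3 (0.061 to 0.133). Of 15 genes of the sliding clamp, its loader and lagging strand synthesis 13 fell (median -1.11), led by the ligase gene Lig1 at -2.63, with the clamp itself, Pcna, at -1.09. Its presort values of 14.02, 14.08 and 14.03 lay near the top of the scale. The smallest called fall there was Rpa3 at -0.66, lost without pool 3 (adjusted p = 0.0926) and under the beta-actin term (0.0522).

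Of 7 measured fork protection genes 6 fell (median -2.05), with the checkpoint mediator Clspn at -2.44, and the histone chaperone gene Asf1a rose by 1.08 ± 0.11 (SE; adjusted p = 0.00019). Of 7 measured nucleotide supply genes 6 fell (median -1.93). Tk1, thymidine kinase, fell from 11.20, 11.49 and 11.63 to 7.82, 8.54 and 8.62, or by 3.11, and Dctpp1 by 0.99, a call lost without presort replicates 2 or 3, without pool 3 and under the beta-actin term (adjusted p of 0.0631 to 0.176). Dck, a salvage kinase, did not pass at 0.18, and was called higher without sorted replicate 1 (0.41) and under that term (0.62), while the mean of its probe sets gave -0.06. Of the 13 E2F and pocket protein genes 8 fell (median -0.86), from E2f8, a repressor of the family, at -2.78 to E2f6 at -0.85. E2f6 missed without presort replicates 2 or 3, without pool 3 and with median centring (0.0517 to 0.083). The activator E2f1, named after its value was seen, fell by 1.49, and Rb1, the retinoblastoma gene, did not pass at 0.01. E2f5, also named after its value was seen, did not pass at 0.25 and was called higher with the mean of probe sets (1.45) and with the beta-actin term (0.72). All 5 S phase cyclin and kinase genes fell (median -1.61), with Ccne2 at -2.74, Ccna2 at -2.64 and Cdk2 at -1.08.

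**Figure D5:**
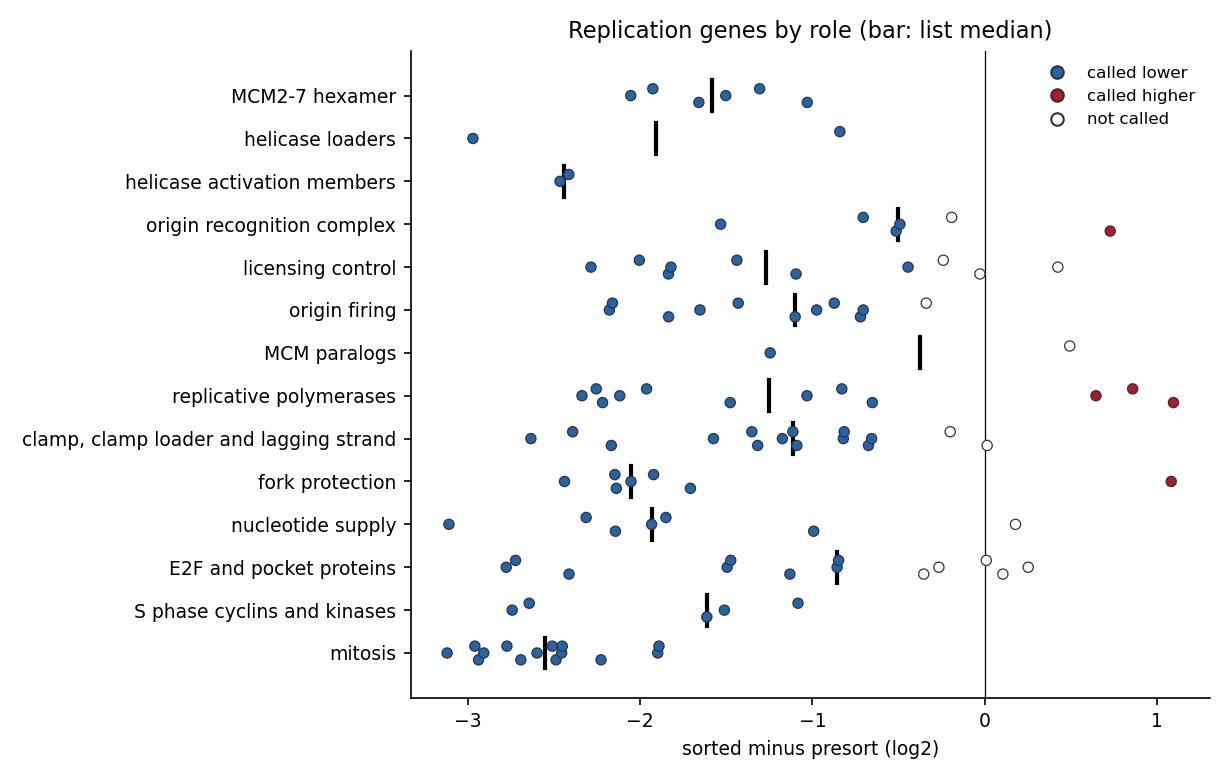
Sorted minus presort difference (log2, horizontal axis) of each measured gene in 14 groups by role, blue where called lower, red where called higher and white where not called (limma, adjusted p under 0.05), with a bar at the group's median. The ring subunits lie between -2.05 and -1.03 and the mitosis genes between -3.12 and -1.89, while the origin recognition complex is centred at -0.50.

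Genes of mitosis, which act after the DNA is copied, fell as well. All 14 measured mitosis genes fell, with a median of -2.55, against -1.58 for the ring subunits. Birc5, survivin, fell by 3.12, and the proliferation marker gene Mki67, from 14.19, 14.10 and 14.14, by 1.89. Summed over genes on the linear scale, the intensities of the 10 members were 51002 to 55783 in presort and 19541 to 21528 in sorted samples, and those of the mitosis genes were 63925 to 64924 and 10335 to 16623.

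Genes of several marrow cell types moved with the members, and their part in the members' difference was not tested. All 8 measured erythroid markers fell, with a summed intensity of 63296 to 66561 in presort and 17689 to 29888 in sorted samples, all 5 neutrophil progenitor markers fell (46660 to 53658 and 5740 to 13182), and all 6 neutrophil markers fell (104539 to 108573 and 31714 to 51275). Of the stem and progenitor markers 4 of 5 fell (2028 to 2469 and 580 to 738), and of the monocyte and macrophage markers 4 of 5 (14562 to 17808 and 4985 to 6733). All 8 measured B cell markers rose (9112 to 18697 and 63848 to 70621). Of the 6 measured B cell progenitor markers 3 rose, 1 fell and 2 did not pass (9482 to 15693 and 28929 to 37147). Rag1, the recombinase, was at 2.75 and Igll1, a surrogate light chain gene, at -0.84. The 2 that did not pass, named after their values were seen, also lay below 0, Vpreb1 at -0.77 and Dntt at -0.79. Igll1 lost its call under 10 alternatives and stood at 0.59 without _x_at and _s_at probe sets. Of the 5 plasma cell markers 3 rose and 1, Jchain, fell (-2.51), and of the 6 T and NK cell markers 1 fell and 5 did not pass. No marker was listed at 0, since the scale has a floor of 3.28.

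RNA quality differed between the groups too. The 3' probe set of the beta-actin control exceeded the 5' one by 0.81 to 1.11 in presort and by 1.43 to 3.17 in sorted samples (two-sided exact permutation p = 0.1), and sorted replicate 1 was the highest. With this excess as a term in the fit all 10 members stayed called lower, with a median of -1.70, and Cdt1 stood at -1.18. The excess did not overlap between the groups, so its part cannot be told apart from that of the sort.

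The genes whose pattern was most like the ring's were looked for over the 6 arrays by the Euclidean distance between log2 values, each centred on its own mean, and the mean profile of MCM2-7. The 8 nearest named genes outside the members were Rnf168 at a distance of 0.096, Marchf3 at 0.12, Rdh12 at 0.14, Vwa5a at 0.16, Inka1 at 0.17, and Blvra, Rad51b and Tspan31 at 0.18 to 0.19. Rnf168, a ubiquitin ligase of the DNA damage response, differed by -1.58 between the groups and Rad51b, a recombination gene, by -1.61. None of the 8 stands in any list used here. The ring subunits lay farther off than these, from 0.27 for Mcm5, which ranked 29 among all genes, to 0.72 for Mcm7, which ranked 693, and Cdc6 lay at 1.75.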

How the data were processed

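The authors deposited a table of linear intensities. The submitters' processing notes name RMA, with its version not given in the sources used here. Values ran from 9.71 to 38492.08 on every array, and the arrays shared 1 distribution to within 0.181%. Log2 was taken with no pseudocount. Of 45101 probe sets 34945 carried 1 gene symbol (platform annotation) and were used, 932 carried several, 9160 none and 64 were controls. Chaf1a, Ccnb1, Mcmdc2 and 5 cell type markers of the lists were not analysed here.

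The comparison of both groups used lmFit and eBayes of limma 3.58.1 under R 4.3.3 (two-sided, Benjamini-Hochberg over 18193 genes, or 34945 probe sets for single probe sets, threshold 0.05), with no filter on dim genes. This fit was unpaired, and the replicate number entered only in an alternative, as a block. On simulated data (18193 genes, 200 changed), 56% of genes shifted by a log2 of 1 and 89% of those shifted by 2 were recovered, with 2 false calls. In the real arrays 5925 genes (32.6%) were called, a far larger share than was changed in the simulation. Recovery under the adjustment depends on that share, so these rates need not hold for this comparison. Presort and sorted samples of the same number were taken as 1 pool, because the labels give them the same biological replicate number. Their deviations from the group means correlated at 0.39, 0.20 and -0.03 across genes for pools 1, 2 and 3. Among mismatched numbers, presort 3 with sorted 2 gave 0.25 and presort 2 with sorted 3 gave 0.18, and the rest were negative. Alternatives were a replicate block, omission of single arrays, of whole pools or of dim genes, quantile normalization over genes, median centring, averages over probe sets, exclusion of _x_at and _s_at probe sets, limma's trend and robust options, array weights, and a term for the 3' excess of the beta-actin control. The number of arrays limits the precision.

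Named are all members with their probe sets and all genes of the origin recognition, licensing control and firing lists. Of other lists, the largest and smallest called difference, called genes of the opposite direction and the gene with the highest mean are named. Of the cell type marker lists, given as counts and sums, only Rag1, Igll1, Vpreb1, Dntt and Jchain are named. Other exceptions are stated. The members, lists and alternatives were chosen with earlier results of these data known. Figures were drawn with matplotlib 3.10.9.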

Additional observations from a re-analysis of the deposited data

How the results depend on the processing

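Of 180 recomputed differences of single members under 18 alternatives, 178 kept their direction and stayed called, none changed direction, and 2, both of Cdt1, lost the call (without pools 2 and 3). With the replicate number as a block all 10 members were called lower, and the block changed no call of a member. The count of members called lower was 9 to 10 when an array or a pool was left out. The members' median of -1.79 moved to -1.56 with median centring, to -1.51 with the mean of probe sets and to -2.12 without _x_at and _s_at probe sets, and that of MCM2-7, -1.58, to -1.35 with median centring and to -2.01 without such probe sets. Over all genes 2629 were called higher and 3296 lower. The higher ones were 5162 with median centring, where the lower share of calls was 33.3% (55.6% without centring) and the all-gene median 0.23, and 45.7% were lower with quantile normalization over genes. Leaving out arrays or pools gave 1544 (without pool 3) to 2608 higher genes. Among other genes that were called, Pole4 turned to -0.0058 with the mean of probe sets and Igll1 to 0.59 without _x_at and _s_at probe sets. The cause was not tested. The 5 probe sets of the members that were not called had means of at most 5.64, where the median of an array is 6.04, and dimmer and brighter probe sets were not tested against each other.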
